A study of Saccharomyces cerevisiae with 16 samples.

Results

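The transcripts of 9 yeast genes were followed through a glucose pulse. PCK1 and FBP1 encode the committed enzymes of gluconeogenesis, and ICL1, MLS1, CIT2 and MDH3 encode enzymes of the glyoxylate cycle. MDH2 encodes a cytosolic malate dehydrogenase that serves both routes, IDP2 a cytosolic isocitrate dehydrogenase that supplies NADPH, and SFC1 a mitochondrial carrier. The 9 genes were found as the probe sets whose single annotated gene is one of these names. Each of the 9 genes had 1 such probe set, none shared with another gene, and all 9 were among the 5410 genes tested, out of 5656 genes with a probe set of their own. The strain was the laboratory Saccharomyces cerevisiae CEN.PK 113-7D, kept aerobic and short of glucose in a chemostat, a vessel with constant inflow and outflow. The feed held 27.1 g of glucose and 1.42 g of ethanol per litre, the dilution rate was 0.05 per hour, the pH 5 and the temperature 30 degrees C. A pulse of glucose then brought the residual concentration to roughly 1 g per litre, or 5.56 mM. RNA was measured on 16 Affymetrix yeast arrays: the steady state before the pulse had 3, the times of 120 and 300 s after it 3 each, those of 30, 60 and 330 s had 2 each, and 210 s had 1. All arrays came from the same strain and medium, so the steady state is the only control. Per the labels, at least 2 independent cultures stand behind every time but 210 s.

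Gluconeogenesis builds hexose phosphates from smaller molecules by running most of glycolysis backwards, with enzymes of its own at the steps that glycolysis cannot reverse. The glyoxylate cycle makes it possible to grow on ethanol or acetate, by joining acetyl units into C4 acids without losing carbon as carbon dioxide. In yeast both are needed when sugar is scarce and are repressed by glucose, at the gene and through destruction of existing enzymes. The time course shows how soon their transcripts move when glucose arrives in a culture that was short of it.

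Signals below are linear intensities after each array was rescaled to the same trimmed mean of 150, with values under 12 set to 12. On that scale the 9 genes ran from 110 to 1369, and 0 of them reached the floor of 12 on any array. Log2 changes carry standard errors from 1 limma model over the 15 arrays of the replicated times, and a gene passed the test where its adjusted p (Benjamini-Hochberg over all 5410 genes) was under 0.05. In bulk RNA, fewer cells expressing a gene and less of its transcript per cell cannot be told apart. The level of 1 gene is not compared with that of another, since probe sets differ in response.

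The arrays as a whole had the following properties. The trimmed mean signal as deposited ran from 82.8 to 325.9. The 5 markers of the haploid a mating type were above the floor on all 16 arrays, with summed signals of 4346 to 8683. Of 3 alpha markers MF(ALPHA)1 (183.9 to 371.6) and STE3 (28.6 to 56.9) were above the floor on all arrays and MF(ALPHA)2 was at or under it on 14, with a sum of 227.5 to 414.7. Of 6 sporulation genes SPO11 and SPO13 were at or under the floor on all 16 arrays, IME2 on 13, NDT80 on 10, SPS1 on 3 and IME1 (37.2 to 87.4) on 0. The median change of all genes was -0.12 at 300 s and -0.19 at 330 s against steady state on the log2 scale, and median centring of each array moved these to -0.01 and -0.04. Values against that median are therefore given for each of the 9 genes as well. Of all genes called at 300 s, 39.8% were higher, 50.3% after quantile normalization and 54.7% after median centring; at 330 s the shares were 35.4%, 43.1% and 52%. Between 300 s and 330 s the share was 29.7% and, after median centring, 55.6%. The 330 s arrays stood apart: their ratio of 3-prime to 5-prime signal for the actin gene ACT1, a measure of how complete the RNA copies are, was 4.07 and 4.52. It was 3.39 on steady-state replicate 1, whose array number lies in the same run as theirs, and 2.10 to 2.95 on the other 13. The 330 s arrays also shared a hybridization day with no other array, so that day and time cannot be told apart for them. Here and below the scan day stands in where no hybridization day was given.

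Over the first 120 s no gene of the 9 passed the test. Against steady state 0 of 9 passed limma's adjusted threshold at 30 s, at 60 s and at 120 s, where 0%, 0% and 0.0739% of all tested genes did. Arrays that all lay below the steady state were seen for 1, 1 and 0 of the 9 genes (11%, 11.6% and 10.4% of all genes), and above it for 0, 1 and 0 (7.01%, 7.1% and 4.16%). At an unadjusted p under 0.05 the counts were 1, 0 and 0 of the 9, against 6.21%, 6.34% and 10.8% of all genes. By 300 s the group had divided. Limma called 6 of 9, against 30.5% of all genes: 5 were lower and 1 higher, where 18.3% and 12.1% of all genes were. SFC1, MLS1, MDH2, IDP2 and FBP1 fell and CIT2 rose, while PCK1, ICL1 and MDH3 did not pass. At 330 s again 6 passed, against 37.6%, with 5 lower and 1 higher where 24.3% and 13.3% of all genes were: ICL1 passed in place of IDP2. Counted without a model, 7 genes at 300 s and 6 at 330 s had all arrays below the steady state (23.6% and 36.1% of all genes) and 1 gene had them above (14.1% and 19%). On the run of array numbers that the 330 s arrays share with steady-state replicate 1, the log2 differences from that array were -1.57 to -0.49 for 8 genes and 0.78 for CIT2. These differences rest on that single array. It held the highest steady-state signal for PCK1, ICL1, MLS1, MDH2, MDH3, IDP2 and CIT2, and the lowest for SFC1. For PCK1 the difference was -0.49, against -0.09 with all steady-state arrays. The part of the high ACT1 ratio of the 330 s arrays in the values at that time was not tested. The median log2 change of the 9 was -0.11 at 120 s, -0.59 at 300 s and -0.47 at 330 s, and that of all genes -0.07, -0.12 and -0.19. Over the whole course 6 of 9 changed by the moderated F test, against 35.5% of all genes.

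**Figure D1:**
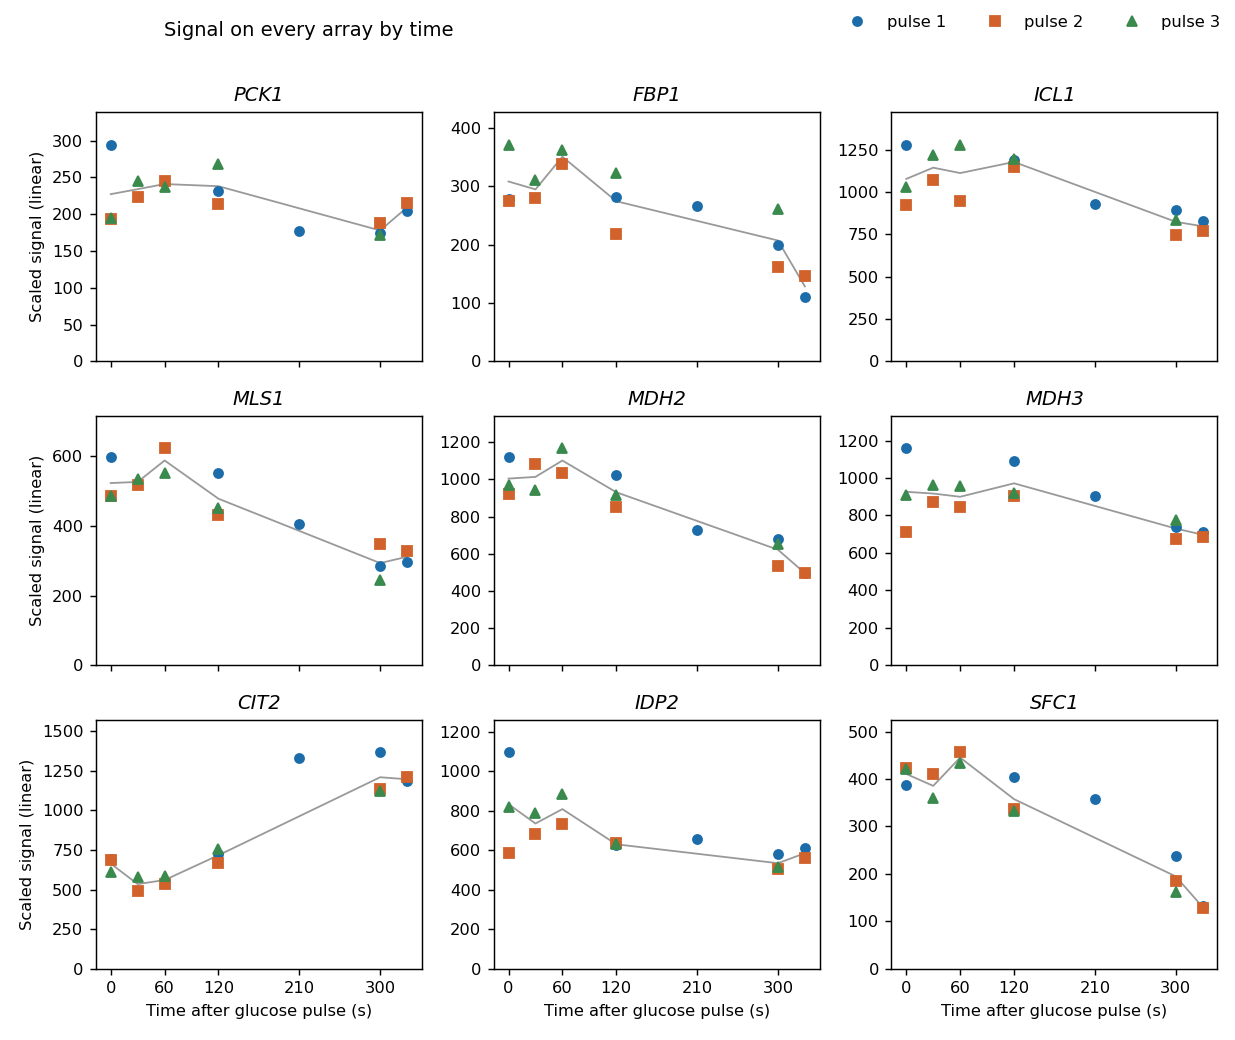
Scaled linear signal of each of the 9 genes on all 16 arrays against time after the pulse in seconds, with marker shape and colour giving the pulse number and the grey line joining means of the replicated times. CIT2 climbs to 1124 or more on every array from 210 s on, while SFC1 falls from between 387 and 424 at steady state to 132 and 128 at 330 s.

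The carrier SFC1 (YJR095W) had the lowest change of the 9 genes at 300 s and at 330 s. It sits in the inner mitochondrial membrane and exchanges succinate, a product of the glyoxylate cycle, for fumarate. Its signals were 387, 424 and 421 at steady state, 410 and 361 at 30 s, 457 and 434 at 60 s, 403, 337 and 333 at 120 s, 357 at 210 s, 237, 186 and 162 at 300 s and 132 and 128 at 330 s. Every array at 300 s and 330 s lay below every earlier array, and the 120 s arrays overlapped the steady state. The log2 change was -0.20 ± 0.14 (SE) at 120 s (limma adjusted p = 0.619), -1.09 ± 0.14 at 300 s (limma adjusted p = 3.09e-05) and -1.66 ± 0.15 at 330 s (limma adjusted p = 1.17e-06), which are falls of 2.13-fold and 3.15-fold at the later times. Against the all-gene median these changes were -0.97 and -1.46, and 2.74% and 1.59% of all genes had a lower change. Between 120 s and 300 s it fell by 0.89 ± 0.14 on the log2 scale (limma adjusted p = 0.000242). The step from 300 s to 330 s was -0.56 ± 0.15 and did not pass (limma adjusted p = 0.0625). With pulse number as a block that step passed, the one case among 28 alternatives.

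PCK1 (YKR097W), phosphoenolpyruvate carboxykinase, starts gluconeogenesis from oxaloacetate. Its signals were 294, 193 and 194 at steady state, 224 and 245 at 30 s, 245 and 237 at 60 s, 232, 214 and 269 at 120 s, 177 at 210 s, 174, 188 and 172 at 300 s and 204 and 215 at 330 s. The 300 s arrays lay below all steady-state arrays, but by little, and the 330 s arrays lay inside the steady-state range. The log2 values were -0.32 ± 0.15 (SE) at 300 s (95% interval -0.65 to 0.000451, limma adjusted p = 0.12) and -0.09 ± 0.17 at 330 s (interval -0.45 to 0.27, limma adjusted p = 0.702). The 330 s value turned to 0.073 with median centring and to 0.11 without steady-state replicate 1, and was -0.49 with array-number series as a block (limma adjusted p = 0.0405). Against the all-gene median the values at 300 s and 330 s were -0.21 and 0.10. From 120 s to 300 s the value was -0.41 ± 0.15 (limma adjusted p = 0.0647).

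FBP1 (YLR377C), fructose-1,6-bisphosphatase, removes a phosphate late in the route, opposite to phosphofructokinase. Signals were 278, 275 and 371 at steady state, 279 and 310 at 30 s, 339 and 362 at 60 s, 281, 219 and 322 at 120 s, 266 at 210 s, 199, 162 and 260 at 300 s and 110 and 147 at 330 s. The 300 s arrays were spread and still overlapped the 120 s arrays, and both 330 s arrays lay below all others. The fall reached 1.5-fold at 300 s (log2 -0.59 ± 0.19 SE, limma adjusted p = 0.0287) and 2.40-fold at 330 s (log2 -1.26 ± 0.21, limma adjusted p = 0.000298). Against the all-gene median the values were -0.47 and -1.07. The call at 300 s was kept in 22 of 30 alternatives. It was lost without steady-state replicate 3, 300 s replicate 1 or 300 s replicate 2 (log2 -0.44, -0.57 and -0.42), and after quantile normalization or median centring (limma adjusted p = 0.0556 and 0.121). The call at 330 s was kept in 28 of 28. The step between 300 s and 330 s was -0.68 ± 0.21 and did not pass (limma adjusted p = 0.1). The ACT1 ratio was 4.07 and 4.52 on one side of that step and at most 2.555 on the other, and its part was not tested. On the same run of array numbers, FBP1 was 1.13 log2 units lower at 330 s than on steady-state replicate 1.

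ICL1 and MLS1 carry the steps that give the glyoxylate cycle its name. ICL1 (YER065C), isocitrate lyase, splits isocitrate into succinate and glyoxylate. Its signals were 1280, 925 and 1029 at steady state, 1069 and 1219 at 30 s, 949 and 1276 at 60 s, 1189, 1149 and 1196 at 120 s, 929 at 210 s, 894, 747 and 834 at 300 s and 829 and 768 at 330 s. All 5 arrays of 300 s and 330 s were below every earlier array of a replicated time. Against steady state the log2 value was -0.38 ± 0.14 (SE) at 300 s, which did not pass (limma adjusted p = 0.0515, or 0.0154 with pulse number as a block), and ICL1 fell by 0.42 ± 0.16 on the log2 scale at 330 s (limma adjusted p = 0.0437), a call kept in 15 of 28 alternatives, so both times stand close to the threshold. It passed at 300 s in 8 of 30 alternatives, and against the all-gene median the values were -0.26 and -0.23. Leaving out steady-state replicate 1 or 3, any 120 s array or either 330 s array ended the 330 s call, with log2 values of -0.48 to -0.29. Against 120 s, where the 3 arrays were tight, ICL1 fell by 0.52 ± 0.14 at 300 s (limma adjusted p = 0.0136), a fall of 1.43-fold, and this call was kept in 28 of 30 alternatives.

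MLS1 (YNL117W), malate synthase, joins glyoxylate with acetyl-CoA to form malate. Signals were 598, 486 and 486 at steady state, 518 and 535 at 30 s, 623 and 554 at 60 s, 553, 430 and 451 at 120 s, 405 at 210 s, 285, 349 and 246 at 300 s and 296 and 327 at 330 s. The late arrays did not overlap any earlier array. MLS1 fell 1.79-fold by 300 s (log2 -0.84 ± 0.14 SE, limma adjusted p = 0.00043) and was 1.67-fold lower at 330 s (log2 -0.74 ± 0.16, limma adjusted p = 0.00209), or -0.72 and -0.55 against the all-gene median. Most of this lay between 120 s and 300 s, at -0.71 ± 0.14 (limma adjusted p = 0.00196), and the 330 s value differed from that at 300 s by 0.10 (95% interval -0.24 to 0.44).

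CIT2 (YCR005C) moved the other way. It encodes the peroxisomal citrate synthase, which feeds acetyl-CoA into the glyoxylate cycle, and is best known as a target of the retrograde pathway that signals from mitochondria to the nucleus. Its signals were 695, 684 and 613 at steady state, 491 and 579 at 30 s, 536 and 584 at 60 s, 727, 667 and 757 at 120 s, 1332 at 210 s, 1369, 1136 and 1124 at 300 s and 1185 and 1208 at 330 s. The arrays at 30 s and at 60 s all lay below the steady state, as they did for 11% and 11.6% of all genes, and the arrays from 210 s on all lay far above it. At 30 s the log2 value was -0.31 ± 0.13 (SE) with an unadjusted p of 0.0263 in limma and an adjusted p of 0.793, which did not pass. At 300 s CIT2 had risen 1.82-fold (log2 0.86 ± 0.11, limma adjusted p = 5.15e-05) and at 330 s 1.81-fold (log2 0.85 ± 0.13, limma adjusted p = 0.000114). From 120 s to 300 s it rose by 0.75 ± 0.11 (limma adjusted p = 0.000225), and from 300 s to 330 s the value was -0.01 (95% interval -0.28 to 0.26). The 210 s array, the sole one at that time and in no test, held 1332, within the range of the 300 s arrays. Against the all-gene median the change was 0.98 at 300 s and 1.04 at 330 s, and 95% and 92.7% of genes had a lower change.

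**Figure D2:**
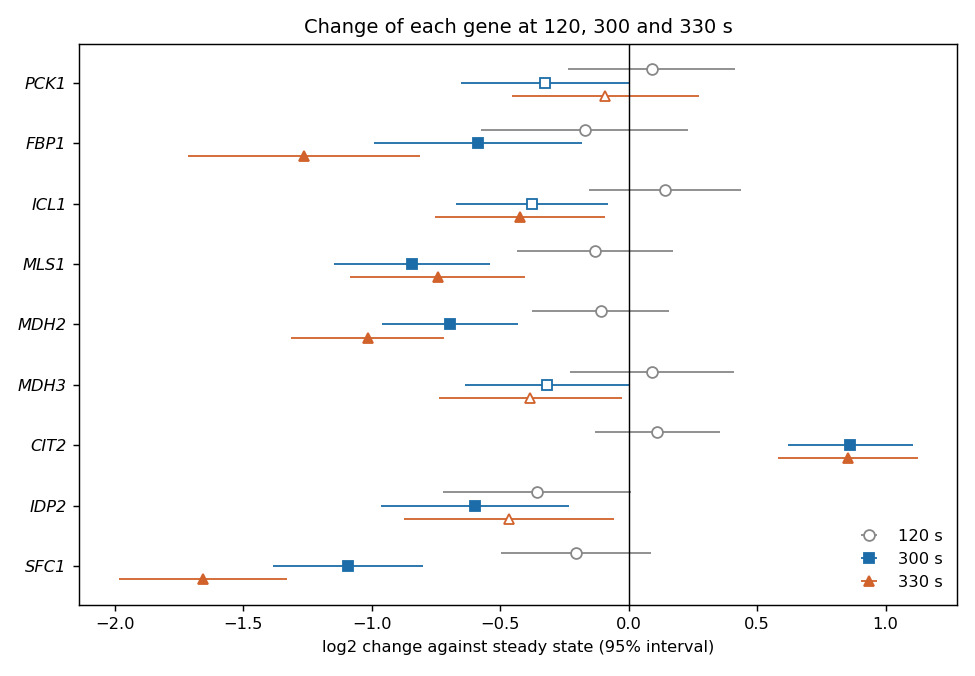
Log2 change against steady state with its 95% interval from the limma model, for each gene at 120 s (grey circles), 300 s (blue squares) and 330 s (orange triangles). Filled symbols passed the adjusted threshold: none at 120 s, 6 at 300 s and 6 at 330 s, with CIT2 alone to the right of 0 among them.

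MDH2 and MDH3 are malate dehydrogenases that share their reaction and differ in place. MDH2 (YOL126C) is the cytosolic form, which turns malate into the oxaloacetate that PCK1 uses. Its signals were 1123, 923 and 968 at steady state, 1084 and 944 at 30 s, 1037 and 1167 at 60 s, 1022, 853 and 918 at 120 s, 725 at 210 s, 681, 533 and 651 at 300 s and 494 and 497 at 330 s. The 300 s arrays were below all steady-state arrays and the 330 s arrays below all 300 s arrays. MDH2 fell 1.62-fold by 300 s (log2 -0.69 ± 0.13 SE, limma adjusted p = 0.000716) and 2.02-fold by 330 s (log2 -1.01 ± 0.14, limma adjusted p = 5.43e-05), or -0.58 and -0.82 against the all-gene median. The difference of -0.32 ± 0.14 between 330 s and 300 s did not pass (limma adjusted p = 0.224).

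MDH3 (YDL078C) is the peroxisomal form, which supports the glyoxylate cycle and fatty acid breakdown. Signals were 1158, 714 and 907 at steady state, 871 and 963 at 30 s, 843 and 956 at 60 s, 1091, 902 and 922 at 120 s, 905 at 210 s, 737, 675 and 778 at 300 s and 711 and 683 at 330 s. Steady-state replicates alone spanned 714 to 1158, which covered 2 of the 3 arrays at 300 s, and neither 330 s array. The log2 value was -0.32 ± 0.15 (SE) at 300 s (limma adjusted p = 0.121) and -0.38 ± 0.17 at 330 s (limma adjusted p = 0.0838), or -0.20 and -0.19 against the all-gene median. The 330 s value passed at -0.73 with array-number series as a block (limma adjusted p = 0.00216), which sets both 330 s arrays against steady-state replicate 1 alone, and at -0.38 with pulse number as a block (0.037) and -0.43 after quantile normalization (0.046). Against 120 s, MDH3 fell by 0.47 ± 0.17 at 330 s (limma adjusted p = 0.039), a call kept in 19 of 28 alternatives. It was lost without 120 s replicate 1 or 3 (log2 -0.39 and -0.51) and without 330 s replicate 1 or 2 (log2 -0.50 and -0.45). Without steady-state replicate 2 MDH3 also fell against steady state, by 0.49 at 300 s (limma adjusted p = 0.0164) and by 0.56 at 330 s (limma adjusted p = 0.0109).

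IDP2 (YLR174W), the cytosolic isocitrate dehydrogenase, supplies NADPH on non-fermentable carbon. Its signals were 1098, 586 and 818 at steady state, 683 and 788 at 30 s, 733 and 884 at 60 s, 626, 635 and 630 at 120 s, 657 at 210 s, 580, 507 and 517 at 300 s and 611 and 559 at 330 s. The steady-state arrays had the widest spread of any time, and the highest 330 s array lay above the lowest of them. IDP2 fell 1.51-fold at 300 s (log2 -0.60 ± 0.17 SE, limma adjusted p = 0.0159), and at 330 s the log2 value was -0.47 ± 0.19 (limma adjusted p = 0.0678), or -0.48 and -0.27 against the all-gene median. The 330 s value passed at -0.91 with array-number series as a block (limma adjusted p = 0.00141), at -0.46 with pulse number as a block (0.0334), at -0.53 after quantile normalization (0.0426) and at -0.70 without steady-state replicate 2 (0.00367). The 300 s call was lost without steady-state replicate 1 (log2 -0.38, limma adjusted p = 0.0737), without 300 s replicate 2 (log2 -0.56), within hybridization days as a block (at -0.35, limma adjusted p = 0.0868) and with median centring (limma adjusted p = 0.0809). The 120 s value was -0.36 ± 0.17 (limma adjusted p = 0.473).

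Comparing the late times directly, 5 of 9 genes changed between 120 s and 300 s, with ICL1, MLS1, MDH2 and SFC1 lower and CIT2 higher, where 22.1% of all genes changed, 10.8% lower and 11.3% higher. All 300 s arrays lay below all 120 s arrays for 7 genes and above them for 1 (22% and 17.9% of all genes). Between 120 s and 330 s 7 of 9 changed (34.1% of all genes), 6 lower and 1 higher, against 19.9% and 14.3%. The arrays were apart for 7 genes below and 1 above, against 36.7% and 25.5%. Between 300 s and 330 s 0 of 9 passed limma's threshold, against 2.18% of all genes (1.53% lower and 0.647% higher). In that step 3 of 9 had an unadjusted p under 0.05, against 19.7% of all genes. FBP1, MDH2 and SFC1 had both 330 s arrays below all 300 s arrays, as 21.1% of all genes did, and 1 gene, PCK1, had them above, as 13.8% did. Within runs of array numbers the steps from 120 s to 300 s held. On the runs of pulses 2, 3 and 1 SFC1 was lower by 0.86, 1.04 and 0.77 and MLS1 by 0.30, 0.88 and 0.96 as log2 differences. MDH2 was lower there by 0.68, 0.50 and 0.59 and ICL1 by 0.62, 0.52 and 0.41. CIT2 was higher there by 0.77, 0.57 and 0.91. The pulse 1 arrays of 120 s and 300 s shared a run but not a hybridization day. With the array-number series as a block the count for this step was 8 of 9, all but IDP2, where 1544 of 5410 genes were called. Between steady state and 300 s, on the pair of hybridization days that held both, CIT2 was higher by 0.88 and 1.00, SFC1 was lower by 1.38 and 0.84 and MLS1 by 0.98 and 0.77. MDH3 had differences of -0.22 and 0.05 and IDP2 of -0.66 and -0.01 on those days.

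The isozymes of a family did not all move alike. For 9 pairs of related genes the log2 ratio within each array was compared between the 5 arrays at 300 s and 330 s and the 10 replicated arrays up to 120 s, by a two-sided exact permutation test over arrays with p-values adjusted over the 9 pairs. The split at 120 s was made with earlier results of these data known. CIT2 over CIT1, its mitochondrial counterpart, rose by 1.41 on the log2 scale, from -1.69 ± 0.30 (SD, n = 10) to -0.28 ± 0.09 (SD, n = 5), with every late array above every early one (exact permutation adjusted p = 0.0015). MDH3 over the mitochondrial MDH1 rose by 0.68, from -0.83 ± 0.18 (SD, n = 10) to -0.15 ± 0.24 (SD, n = 5), again without overlap (exact permutation adjusted p = 0.0015). Both genes of this ratio were lower on the late arrays, with mean log2 changes of -0.37 for MDH3 and -1.05 for MDH1. For CIT2 and CIT1 these changes were 0.94 and -0.47. MDH2 over MDH3 fell by 0.45 (exact permutation adjusted p = 0.002, n = 5 and 10). Its ranges were barely apart, at -0.114 on 300 s replicate 1 and -0.094 on 120 s replicate 1. How many other pairs of genes separate late from early arrays was not tested, and 35.5% of all genes changed by the moderated F test. Without the run of array numbers that holds the 330 s arrays, MDH2 over MDH3 changed by -0.37 (exact permutation adjusted p = 0.0511, n = 3 and 9). CIT2 over CIT1 and MDH3 over MDH1 kept an exact permutation adjusted p of 0.0205 each. MDH2 over MDH1 changed by 0.23 (exact permutation adjusted p = 0.0577, n = 5 and 10), with ranges that overlapped.

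For 3 more ratios the late and early ranges overlapped, and the change passed in the full set but not in all alternatives. IDP2 over the peroxisomal IDP3 rose by 0.53 (exact permutation adjusted p = 0.0142, n = 5 and 10), while both genes were lower on the late arrays (-0.41 and -0.94). MLS1 over ICL1 fell by 0.34 and FBP1 over PCK1 by 0.54 (exact permutation adjusted p = 0.043 for both, n = 5 and 10). IDP2 over IDP3 was called in 21 of 24 alternatives, MLS1 over ICL1 and FBP1 over PCK1 in 11 of 24 each. Without 330 s replicate 1 these 3 changes were 0.39, -0.33 and -0.36, with exact permutation adjusted p-values of 0.0665, 0.0745 and 0.111 (n = 4 and 10). Without the run of array numbers that holds the 330 s arrays they were 0.36, -0.39 and -0.23. Exact permutation adjusted p-values were then 0.0682, 0.076 and 0.273 (n = 3 and 9). IDP2 over the mitochondrial IDP1 changed by -0.34 and SFC1 over the dicarboxylate carrier gene DIC1 by -0.46, and neither passed (exact permutation adjusted p = 0.134 and 0.0577, n = 5 and 10).

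**Figure D3:**
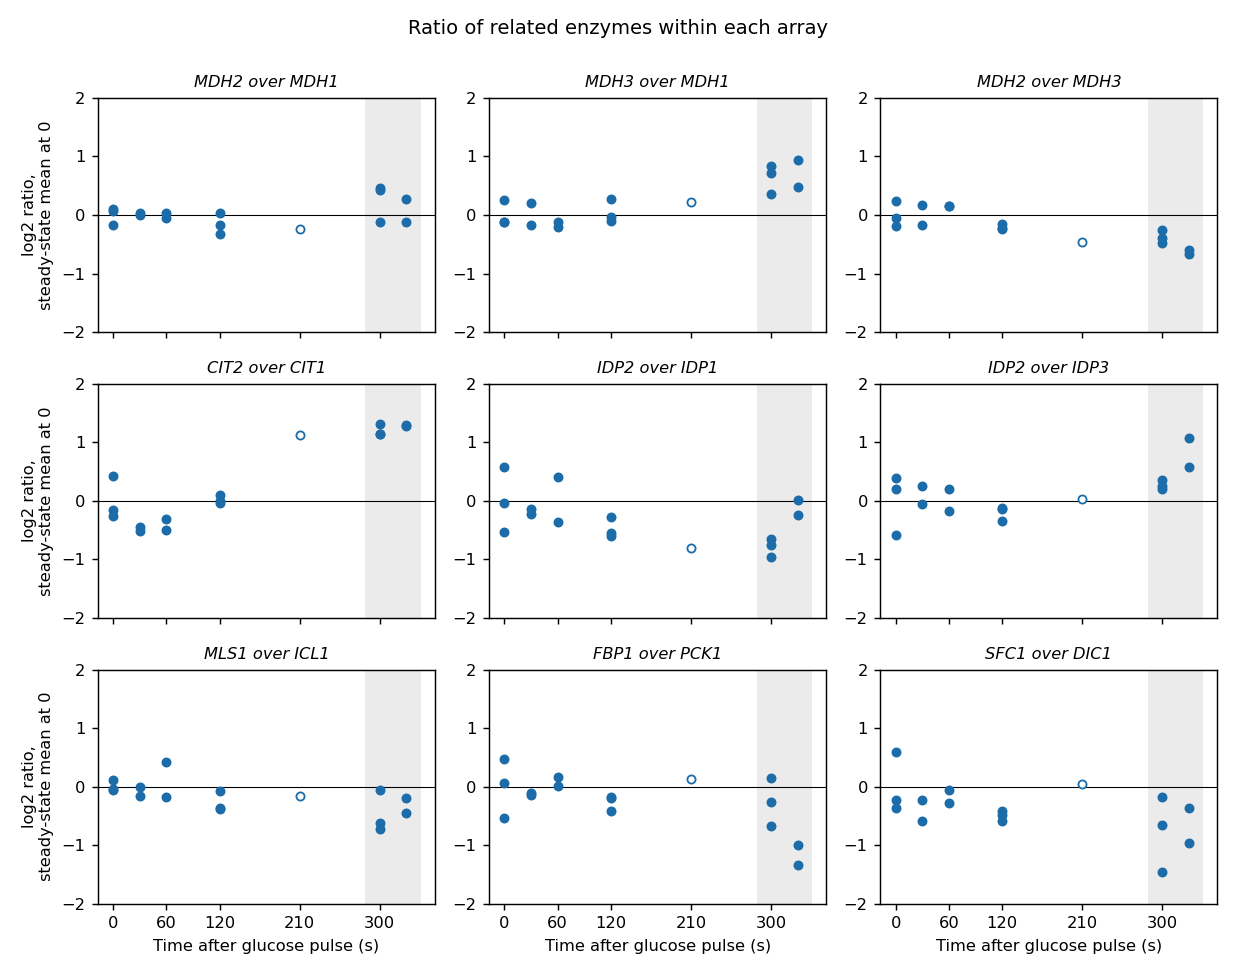
Log2 ratio of each pair of related genes within an array, shifted so that the steady-state mean is 0, against time in seconds; grey marks the late arrays and the open circle the single 210 s array, which is in no test. CIT2 over CIT1 sits above 1 on all late arrays, and MDH2 over MDH3 lies below all earlier replicated arrays.

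Relatives of the 9 genes moved in both directions. Of 11 measured, 5 fell and 2 rose at 300 s, and 6 fell and 2 rose at 330 s, with a median log2 change of -0.34 and -0.46, where 18.3% of all genes fell and 12.1% rose at 300 s and 24.3% and 13.3% at 330 s. At 300 s MDH1, which works in the citric acid cycle, fell 1.93-fold, IDP3 1.83-fold and ICL2, a mitochondrial lyase of the same family as ICL1 that acts on methylisocitrate, 1.68-fold (limma adjusted p between 8.7e-05 and 0.000771). OAC1, a mitochondrial carrier for oxaloacetate, rose 2.60-fold at 300 s, from a mean of 864 to 2266, and 3.12-fold at 330 s (limma adjusted p = 3.35e-05 and 1.38e-05). CIT1 did not pass at either time (log2 -0.34 ± 0.15 and -0.44 ± 0.17 SE), nor did IDP1 (0.19 and -0.35). DIC1 stood at -0.33 at 300 s, which did not pass, and fell by 0.99 at 330 s.

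The enzymes that run the one-way steps of sugar breakdown, with those that make and remove the regulator fructose-2,6-bisphosphate, changed too. Of 10 measured, 3 rose and 5 fell at 300 s, and 2 rose and 7 fell at 330 s, with medians of -0.47 and -1.0, beside 18.3% lower and 12.1% higher over all genes at 300 s and 24.3% and 13.3% at 330 s. PFK27 and PFK26, which both make the regulator, went opposite ways: PFK27 rose 2.93-fold at 300 s, from a mean signal of 19.8 to 56.6, and PFK26 fell 3.39-fold, from 260 to 75.7 (limma adjusted p = 8.18e-05 and 5.49e-06). FBP26, which removes it, fell 1.85-fold and the hexokinase HXK1 2.35-fold. The reversible enzymes between these steps, used in both directions, stayed under the threshold at 300 s: 0 of 9 measured passed, with a median of 0.20, and at 330 s 2 rose. TDH1, a glyceraldehyde-phosphate dehydrogenase, stood at 0.28 ± 0.12 (log2, SE) at 300 s and rose by 0.57 ± 0.13 at 330 s (limma adjusted p = 0.08 and 0.00363). ENO2, an enolase, had 0.34 ± 0.16 at 300 s (limma adjusted p = 0.116).

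Among 16 genes that bring carbon to the pathway, 8 fell and 1 rose at 300 s, and 9 fell and 1 rose at 330 s (medians -0.39 and -0.52). Over all genes 18.3% fell and 12.1% rose at 300 s, and 24.3% and 13.3% at 330 s. CRC1 and CAT2, genes of the carnitine shuttle that moves acetyl units, fell 2.16-fold and 1.84-fold at 300 s. GUT1, the glycerol kinase, fell 1.80-fold and JEN1, the lactate permease, 1.69-fold at that time. Of 16 regulators, 7 fell and 0 rose at 300 s and 9 fell and 1 rose at 330 s (medians -0.43 and -0.62), to be read against the same shares of all genes. CAT8, the zinc-finger activator of gluconeogenic genes, fell 1.72-fold at 300 s and 2.21-fold at 330 s, from a mean of 44.4 to 26.0 and 20.3, and ADR1, another activator, 1.68-fold and 2.38-fold. The repressor gene MIG1 fell 2.27-fold at 300 s. MIG2, a related repressor gene, fell from a mean of 38.8 to 12.8 (limma adjusted p = 0.000403), with 2 of the 3 arrays at 300 s at the floor.

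Of 8 genes for the GID ubiquitin ligase, 1 rose and 5 fell at 300 s, and 1 rose and 6 fell at 330 s (medians -0.80 and -0.92), against 12.1% and 18.3% of all genes at 300 s and 13.3% and 24.3% at 330 s. The ligase marks FBP1, PCK1, ICL1 and MDH2 proteins for destruction after glucose returns. VID24, its subunit that recognises these substrates, rose 8.03-fold at 300 s (log2 3.00 ± 0.26 SE, limma adjusted p = 7.54e-07), from a mean signal of 54.8 to 438. At 210 s its signal was 113. Among those that fell at 300 s were VID28, 2.14-fold, UBC8, the partner conjugating enzyme, 2.13-fold, and GID7, 1.91-fold. The list of 8 does not hold GID11, whose log2 change was -1.84 at 300 s and -2.17 at 330 s.

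**Figure D4:**
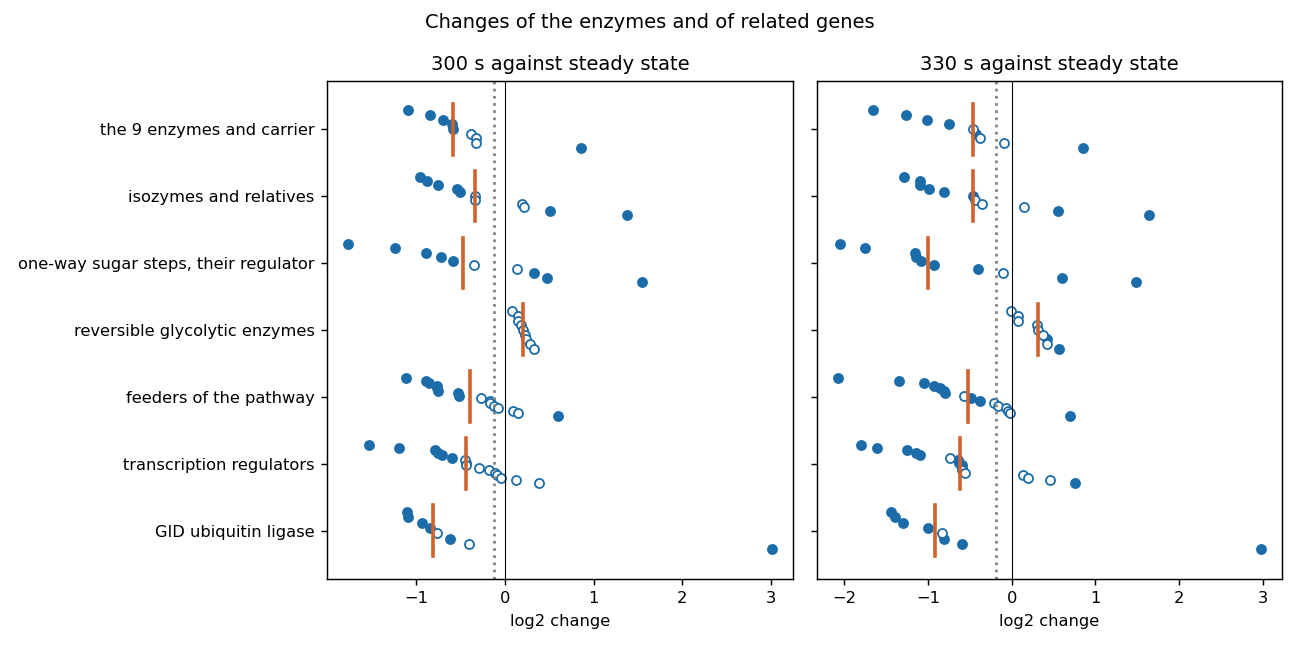
Log2 change at 300 s (left) and 330 s (right) against steady state for the 9 genes and for 6 lists of related genes, one circle per gene, filled where it passed the adjusted threshold. The orange bar is the list median and the dotted line the median of all 5410 genes, -0.12 at 300 s and -0.19 at 330 s.

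Genes with the profile most like each member, by Pearson correlation over the 15 replicated arrays, are given as a description, since arrays of 1 day share technical effects. For SFC1 they were TSL1 (r = 0.99), GPT2 (0.976) and MAL33 (0.975). For MDH2 they were ACO1, RCF1 and GID11 (0.981, 0.975 and 0.975), of which ACO1, aconitase, catalyses a step shared by the glyoxylate and citric acid cycles. CIT2 was closest to YRB1, ZRT1 and DLD3 (0.974, 0.96 and 0.956), of which DLD3 rose by 1.11 at 300 s. MLS1 was closest to GOR1, OSM1 and ART10 (0.964, 0.96 and 0.949), FBP1 to TIR4, VPS55 and NRD1 (0.96, 0.945 and 0.943) and ICL1 to SAP1, FBP26 and CIT1 (0.937, 0.928 and 0.92). Among the 9 genes themselves the highest correlation was that of MDH2 with SFC1 (0.959), followed by ICL1 with MDH3 (0.92). CIT2 correlated negatively with each of the other 8, from -0.896 with MLS1 to -0.569 with PCK1.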

How the data were processed

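The values the authors deposited for 16 Affymetrix YG_S98 arrays are linear intensities of probe sets. GCOS is named in the submitters' processing notes, and its version is not given in the sources used here. Each array was rescaled to a mean of 150 after trimming 2% at each end, values under 12 were set to 12 and log2 was taken. Probe sets with 1 annotated gene (6504) were named through the R64 gene table, the brightest was kept per gene, and 246 genes that did not exceed 12 on at least 2 arrays were dropped. Limma 3.58.1 in R 4.3.3 fitted 1 mean per replicated time to 15 arrays (eBayes with a variance trend, 9 residual and 6.31 prior degrees of freedom). The procedure was run on simulated data with independent arrays and no day, run or pulse effects. That simulation cannot show how batches affect the p-values. With day as a random block, arrays of 1 day had a consensus correlation of 0.265. The number of arrays limits precision. The 210 s array entered no test. P-values measure the spread between arrays, of which the labels say only that at least 2 cultures stand behind a replicated time, so part of it may be technical.

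The members, lists and pairs were chosen with earlier results of these data known. All 9 genes are named, and from each list up to 4 called genes with the largest change at 300 s, or the 2 largest where fewer than 2 were called, with the genes of the pairs and 3 closest profiles per member called by the F test. VID24 at 210 s, DLD3 and the changes of GID11 were singled out after their values were seen. Hybridization days (6), taken from the arrays' experiment files, and 4 runs of array numbers served as batches. Where no hybridization day was given, the scan day took its place. Alternatives changed scaling, floor, filter, probe sets, variance model, block, arrays and threshold.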

Additional observations from a re-analysis of the deposited data

Results flagged for a closer look

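CIT2 on the 210 s array, which entered no test, had a signal of 1332, above all 3 steady-state arrays (613 to 695). With 1 array at that time there is no replicate check.

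For 5 genes, ICL1, MLS1, MDH2, CIT2 and SFC1, the arrays showed an effect at 300 s that differed from that at 120 s, by the direct contrast of these times, both of which are read against the same steady-state arrays. The log2 differences were -0.89 for SFC1, 0.75 for CIT2, -0.71 for MLS1, -0.59 for MDH2 and -0.52 for ICL1 (limma adjusted p = 0.000242, 0.000225, 0.00196, 0.0031 and 0.0136). All 3 arrays at 300 s lay on one side of all 3 at 120 s for each of them, as for 22% (below) and 17.9% (above) of all genes. No group held the 4 arrays needed to look for single outlying arrays.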

How the results depend on the processing

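SFC1, MLS1, MDH2 and CIT2 kept their calls and directions at 300 s in 30 of 30 alternatives and at 330 s in 28 of 28. The counts of 0 of 9 at 30 s, 60 s and 120 s held in all 30. Leaving out 1 array gave 4 to 8 genes at 300 s against 6, 5 to 8 at 330 s against 6, 4 to 7 from 120 s to 300 s against 5, 5 to 7 from 120 s to 330 s against 7, 5 to 9 over the course against 6, and 3 to 6 pairs against 6. The lowest pair count came without 330 s replicate 1. Of all 5410 genes, these same fits called 1229 to 1705 at 300 s and 1335 to 2103 at 330 s. They called 892 to 1271 from 120 s to 300 s and 1172 to 1941 from 120 s to 330 s. For the test over the course and for the pairs no such all-gene count was taken. Blocking on array-number series raised the count from 120 s to 300 s to 8, where 1544 of 5410 genes were called. At 330 s it raised the count to 9 of 9 against steady state (1675 of all genes) and against 120 s (958 of all genes). In that block both 330 s contrasts rest on steady-state replicate 1, the only other array of their series. Adjusted p under 0.01 left 3 pairs, and dropping array-number series 1, chosen after seeing the data, left 2. PCK1 at 330 s changed sign, from -0.09 to 0.073 with median centring of each array, and without single arrays ranged from -0.19 to 0.11, the last without steady-state replicate 1. The cause was not tested. Median centring lowered the counts at 300 s and 330 s to 4 and 5, where 1486 and 1810 of 5404 genes were called.

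Pulse numbers were shared by arrays of different times. Deviations of same-numbered arrays correlated from -0.202 to 0.425, with a median of 0.154 and 20 of 31 pairs over 0.1, against a median of -0.0888 and 8 of 62 for other pairs. Every negative value of a same-numbered pair involved 330 s replicate 2 (-0.202, -0.081 and -0.0665). Deviations were taken from the mean of each time, so values of same-numbered and other pairs are tied to each other. The labels do not say what a number shares, so the main fit took no pairing, though same-numbered arrays were more alike. With pulse number as a replicate block the counts were 7 of 9 at 300 s (with ICL1), 8 at 330 s (with MDH3 and IDP2) and 1 (SFC1) between 300 s and 330 s. Of all 5410 genes 1932, 2312 and 160 were called there. With hybridization day as a fixed block, contrasts with 330 s could not be fitted.

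Over all genes, 1648 were called at 300 s and 938 with only the compared arrays in the fit, 952 at 0.01. At 330 s 2034 fell to 1299 with only the compared arrays, 1283 at 0.01 and, without 330 s replicate 1, 1335. The 1195 from 120 s to 300 s fell to 713 at 0.01. From 120 s to 330 s 1847 fell to 1196 at 0.01, 1172 without 330 s replicate 1 and 958 with the array-number block. The 4 at 120 s ranged from 0 to 23 and the 118 between 300 s and 330 s from 0 to 246, while 30 s and 60 s reached at most 17 and 3.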
